A study of Mus musculus with 16 samples.

Results

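The genes described here are 10 that enterocytes use to take up dietary fat and to load it onto chylomicrons: Apoa1, Apoa4, Apob, Apoc3, Mttp, Fabp1, Fabp2, Mogat2, Dgat1 and Cd36. They were chosen by name, and all 10 were among the 24421 genes listed in the deposited matrices. The source was crypt-enriched small intestine of outbred mice of a pair of genotypes, dissociated to single cells at postnatal day 16. ROBO mice carried 1 copy of a Crainbow transgene and 1 copy of Villin-Cre, which switches the transgene on in the developing intestinal epithelium; the transgene then expresses human RSPO3 or a PTPRK-RSPO3 fusion, secreted enhancers of Wnt signalling, with 1 of these in each recombined cell. WT littermates were the controls. The labels list 8 WT and 8 ROBO samples, but each genotype was deposited as a single matrix whose cell names carry neither a sample nor a barcode, so shared barcodes could not be counted and each genotype is 1 pooled sample with no replicate check. The sample records also give 2 capture cartridges per genotype, and the cell names do not mark them. A difference between cartridges therefore cannot be told apart from one between genotypes.

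Dietary triglyceride is split in the gut lumen, and the enterocyte takes up fatty acids and monoacylglycerol, carries fatty acids on cytosolic binding proteins, rebuilds triglyceride at the endoplasmic reticulum and packs it with apolipoproteins into chylomicrons that leave for the lymph. Enterocytes are born in the crypt and move up the villus as they mature, so a position along that axis is also an age. Suckling mice at this stage live on milk, a diet rich in fat.

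The WT matrix held 1348 cells and 2682127 unique molecular identifiers (UMIs, each a captured transcript), and the ROBO matrix 1249 cells and 2428435 UMIs. The median depth was 1492 UMIs per cell in WT and 1610 in ROBO. The cells were clustered without the 10 genes and without 78 further genes of fat handling, so that the genes described did not define the cells they are compared over. Of 14 clusters, 4 with 382 WT and 404 ROBO cells were enterocyte-like by their markers. From the crypt upward these were a bottom cluster led by Reg1, Ms4a18 and Gsdmc4, a middle cluster led by Sis, Reg3a and Aldh1a1, a second middle cluster led by Cubn, Gm2061 and Lect2, and a top cluster led by Gpx3, Mfi2 and Ada. The order of both middle clusters is a convention of this text, and their place on the villus was not measured. Depth fell along the same order, with medians of 2743, 1888.5, 1473 and 1217 UMIs per cell, and its part in the results was not tested. Marker genes of other cells were close to 0 in the enterocyte-like cells: the 18 immune markers summed to 14 UMIs in WT and 11 in ROBO, and the 14 fibroblast markers to 3 in each. A level below is the number of UMIs of a gene per 10000 UMIs of the same cells, with an exact Poisson 95% interval where one is given. These intervals, and those of ratios, cover counting error only. Variation between animals or between cartridges is not in them. Levels of different genes are not compared in size, since a 3′ count is not a measure per length of transcript.

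In GENCODE M21 (GRCm38), 3 of the genes lie side by side on chromosome 9: Apoa1 at chr9:46228580-46230466 on the plus strand, Apoc3 at chr9:46232933-46235636 on the minus strand and Apoa4 at chr9:46240696-46243459 on the plus strand, within 14880 bases. The others are spread over the genome. Apob lies at chr12:7977648-8016835 (plus), Fabp1 at chr6:71199827-71205023 (plus), Fabp2 at chr3:122895072-122899506 (plus), Mttp at chr3:138089854-138144968 (minus), Mogat2 at chr7:99219084-99238619 (minus), Dgat1 at chr15:76502015-76511953 (minus) and Cd36 at chr5:17781690-17888801 (minus). Genes on the opposite strand overlap Apoa4, Fabp2, Mogat2 and Mttp, and of these only Trmt10a, which shares 1521 bases with Mttp, was listed in the matrices. Whether the counting used strand is not given in the sources used here, so reads of such partners cannot be told apart.

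The 250 bases before the RefSeq start of 4 of the genes are shown because these genes stand for the patterns over the enterocyte-like clusters described below. Apoa1 was highest at the top, Fabp1 and Fabp2 were highest in the Sis-led middle cluster, and Apob varied least of the apolipoproteins. The sequences are those of RefSeq on GRCm38.p6, all on the plus strand, at chr9:46228380-46228629, chr6:71199629-71199878, chr3:122894822-122895071 and chr12:7977427-7977676 in the order given. The RefSeq start lies 50 bases past the GENCODE start of Apoa1, 52 past that of Fabp1 and 29 past that of Apob, so the last bases of these windows fall inside the GENCODE gene, and for Fabp2 both starts are the same. Capitals mark matches to TATAAA, the TATA box, or to AAAGGTC and AAAGTCC, short forms of the site bound by nuclear receptors of the HNF4 family. Both strands were searched, and the motifs share no overlapping match here.
Apoa1: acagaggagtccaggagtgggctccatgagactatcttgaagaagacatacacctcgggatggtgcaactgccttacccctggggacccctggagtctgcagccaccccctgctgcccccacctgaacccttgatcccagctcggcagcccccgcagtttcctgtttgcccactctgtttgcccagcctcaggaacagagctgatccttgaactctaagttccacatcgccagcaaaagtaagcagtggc
Fabp1: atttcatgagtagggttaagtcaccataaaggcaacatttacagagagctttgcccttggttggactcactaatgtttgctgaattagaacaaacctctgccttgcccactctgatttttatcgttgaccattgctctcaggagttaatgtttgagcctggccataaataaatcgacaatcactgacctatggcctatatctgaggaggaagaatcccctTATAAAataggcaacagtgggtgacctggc
Fabp2: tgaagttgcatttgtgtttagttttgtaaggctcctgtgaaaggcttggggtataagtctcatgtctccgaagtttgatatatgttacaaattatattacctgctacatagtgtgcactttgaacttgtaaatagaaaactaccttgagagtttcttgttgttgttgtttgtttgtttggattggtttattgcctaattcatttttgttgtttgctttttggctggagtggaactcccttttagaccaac
Apob: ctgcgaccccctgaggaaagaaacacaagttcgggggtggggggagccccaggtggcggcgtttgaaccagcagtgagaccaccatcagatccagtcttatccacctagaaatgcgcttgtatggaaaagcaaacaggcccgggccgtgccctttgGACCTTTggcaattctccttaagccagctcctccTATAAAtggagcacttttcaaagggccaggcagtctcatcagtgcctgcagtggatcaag
Fabp1 had TATAAA from base -30 to base -25, counted from its RefSeq start. Apob had TATAAA from -60 to -55, and AAAGGTC on the minus strand from -94 to -88. The windows of Apoa1 and Fabp2 held none of the 3 motifs. Over 32851 windows of this kind, TATAAA was found in 12.4%, AAAGGTC in 3.32% and AAAGTCC in 3.58%, so the matches are a description and no more. RefSeq windows were at hand for 7 of the 10 genes, and those for Apoc3, Mogat2 and Dgat1 were not analysed here.

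The apolipoproteins Apoa1, Apoa4 and Apoc3, which coat the chylomicron surface, had by far their highest level in the top cluster. Apoa4 had a level of 23.4 in WT and 19.7 in ROBO in bottom enterocyte-like cells, 285 and 235 in the Sis-led middle cluster, 397 and 451 in the Cubn-led middle cluster, and 1663 and 1387 in top cells. In both genotypes each cluster was above the one before it. The top level of Apoa4 was 69.6-fold the bottom level over both genotypes, or 6.12 on the log2 scale (6.03 to 6.21).

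Apoa1, the main protein of high density lipoprotein, ran in parallel, with levels of 8.16 in WT and 4.22 in ROBO at the bottom, 132 and 109 in Sis-led cells, 173 and 209 in Cubn-led cells, and 596 and 555 at the top. Its top level was 91.2-fold its bottom level. Apoc3, an inhibitor of lipoprotein lipase, had levels of 1.68 in WT and 2.16 in ROBO at the bottom and 162 and 142 at the top, a 78.8-fold difference, with 23.9 and 27.0 in Sis-led and 37.0 and 37.6 in Cubn-led cells between them. All 3 genes of the chromosome 9 group had the same order of the 4 enterocyte-like clusters in WT and in ROBO.

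Apob encodes the large protein that each chylomicron is built on, and it did not follow its partners. Its level was 0.432 in WT and 0.422 in ROBO at the bottom, 2.40 and 1.69 in Sis-led cells, 2.43 and 2.35 in Cubn-led cells, and 2.16 and 2.83 at the top. The bottom cluster stood below the other 3, and the other 3 could not be told apart at this depth. Only 289 Apob UMIs were found in all enterocyte-like cells, so its intervals are wide.

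Mttp, the transfer protein that moves lipid onto Apob in the endoplasmic reticulum, was highest in the Sis-led middle cluster and lower in the other enterocyte-like clusters. Its levels were 11.4 in WT and 9.80 in ROBO at the bottom, 23.4 and 24.6 in Sis-led cells, 13.5 and 14.7 in Cubn-led cells, and 7.43 and 11.1 at the top. Bottom and top cells did not differ beyond their counting intervals over both genotypes, at a log2 ratio of -0.15 for top over bottom.

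**Figure D1:**
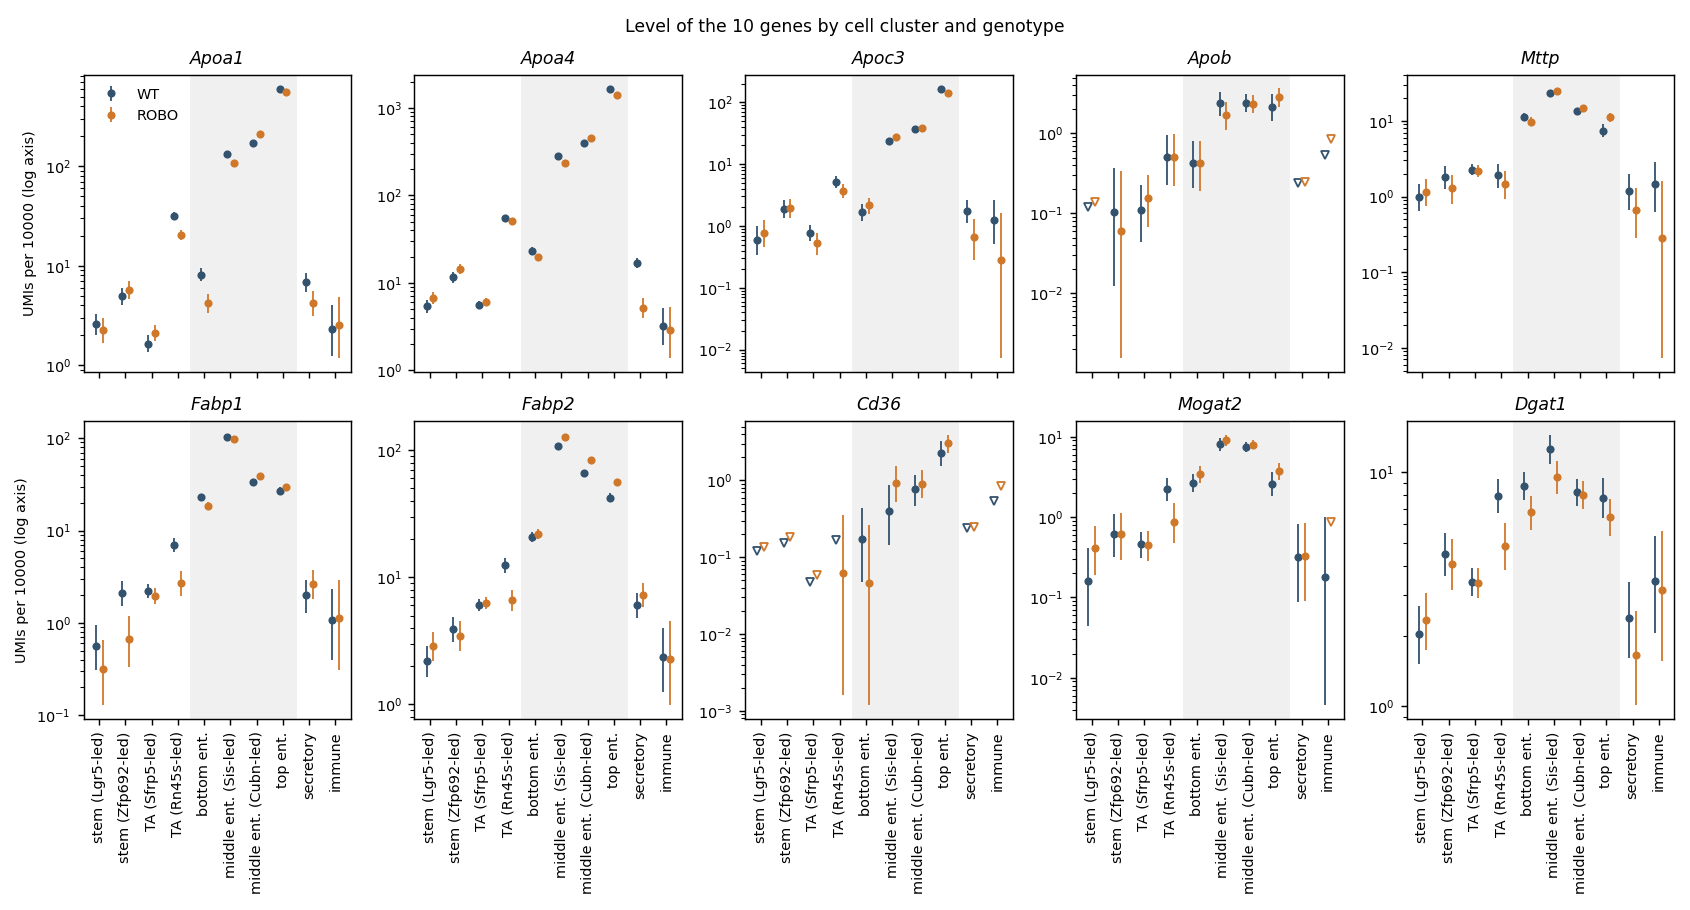
Level of each of the 10 genes (UMIs per 10000 UMIs, log axis) in the clusters of WT and ROBO cells, with error bars that cover counting only (exact Poisson, 95%); the grey band holds the 4 enterocyte-like clusters, and open triangles mark the upper limit where no UMI was found. Apoa1, Apoa4 and Apoc3 climb to the top cluster, while Fabp1, Fabp2 and Mttp are highest in the Sis-led middle cluster in both genotypes.

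The fatty acid binding proteins were also highest in the Sis-led middle cluster, whose place on the villus was not measured. Fabp1, the liver-type binding protein, had levels of 22.9 in WT and 18.4 in ROBO at the bottom, 104 and 98.6 in Sis-led cells, 34.0 and 39.3 in Cubn-led cells, and 27.0 and 29.6 at the top. Fabp2, the intestinal type, had 20.8 and 22.0 at the bottom, 107 and 127 in Sis-led cells, 66.3 and 83.6 in Cubn-led cells, and 42.4 and 55.9 at the top. The 2 binding proteins shared the Sis-led maximum. The difference between Sis-led and Cubn-led cells was larger for Fabp1, with a log2 ratio of Cubn-led over Sis-led cells of -1.46 against -0.64 for Fabp2.

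Cd36, a membrane protein that binds long-chain fatty acids, was sparse and was highest at the top. It had 4 WT UMIs and 1 ROBO UMI in bottom cells, 6 and 15 in Sis-led cells, 20 and 24 in Cubn-led cells, and 31 and 57 in top cells. These made levels of 0.173 and 0.0469 at the bottom and of 2.30 and 3.04 at the top. Levels of Cd36 in both middle clusters did not differ beyond counting error.

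The enzymes that rebuild triglyceride had their highest levels in the middle clusters. Mogat2, which adds a fatty acid to monoacylglycerol, had levels of 2.68 in WT and 3.42 in ROBO at the bottom, 8.05 and 8.996 in Sis-led cells, 7.41 and 8.01 in Cubn-led cells, and 2.60 and 3.73 at the top. It was high in both middle clusters, which did not differ, and low at both ends, which did not differ either. Dgat1, which adds the last fatty acid, had its highest level in Sis-led cells, at 12.6 in WT and 9.56 in ROBO, and lay between 6.46 and 8.76 in the other clusters of either genotype. Over both genotypes neighbours among these others did not differ beyond counting error, and in ROBO the Sis-led and Cubn-led levels did not either.

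Taken step by step over both genotypes, a gene is called here where it had at least 100 UMIs over the 2 clusters compared and differed at least 1.5-fold. From the Sis-led to the top cluster, 4 of the 10 genes were higher, against a background of 18.4% of 1141 genes, and 5 were lower, against 43.6%. The 4 were Apoc3 (log2 ratio 2.56), Apoa4 (2.53), Apoa1 (2.25) and Cd36 (2.01). The 5 were Fabp1 (-1.83), Mogat2 (-1.39), Mttp (-1.32), Fabp2 (-1.22) and Dgat1 (-0.65), while the median over all genes tested was -0.44. The share of members that were lower was thus close to that of all genes, and Dgat1 lay close to the median. A level is a share of all UMIs, so a lower level at the top does not show fewer molecules per cell. With the 10 genes left out of the total, the summed level of Fabp1, Fabp2, Mttp and Mogat2 was still lower at the top than in the middle clusters, at a log2 ratio of -0.68 against -0.95 with them. The median over all genes with that total is not given here.

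From the bottom to the Sis-led cluster, 7 of the genes were higher and none was lower, against 17.5% higher and 24.6% lower of 1502 genes. Apoc3 was 13.4-fold, Fabp2 5.50-fold, Fabp1 4.88-fold and Mogat2 2.81-fold the bottom level. Dgat1, at 1.41-fold, was tested but not past the threshold, and Apob and Cd36 had fewer than 100 UMIs. From the Sis-led to the Cubn-led cluster, Apoa4 (log2 ratio 0.71) and Apoa1 (0.67) were higher, against 18.9% of 1617 genes, and Fabp1, Mttp and Fabp2 were lower, against 17.4%. From the Cubn-led to the top cluster, Apoc3 (2.01), Apoa4 (1.82), Cd36 (1.70) and Apoa1 (1.58) were higher, against 10.3% of 1556 genes, and Mogat2 (-1.24) was lower, against 36.6%.

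The 10 genes together made up 25.1% of all UMIs of top cells in WT and 22.0% in ROBO. In bottom cells they made up 1.00% and 0.868%, in Sis-led cells 6.99% and 6.42%, and in Cubn-led cells 7.39% and 8.55%. At the top Apoa4 gave 64.5% of the UMIs of the 10 genes, Apoa1 24.6% and Apoc3 6.47%. At the bottom the sum was divided more evenly, with 23.0% from Apoa4, 22.7% from Fabp2, 22.1% from Fabp1, 11.3% from Mttp and 8.32% from Dgat1. For each Apoa4 UMI there were 0.960 Fabp1 UMIs in bottom cells, 0.390 in Sis-led, 0.0864 in Cubn-led and 0.0190 in top cells, a ratio that does not depend on how levels are scaled.

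**Figure D2:**
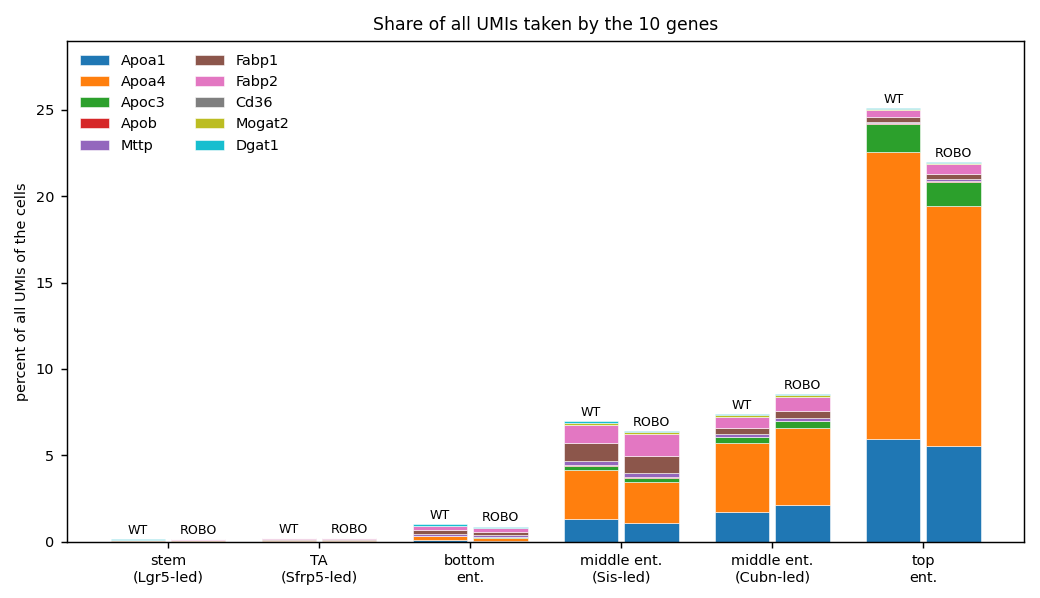
Percent of all UMIs of the cells that came from the 10 genes, as bars stacked by gene, in the Lgr5-led stem-like, Sfrp5-led transiently amplifying-like (TA) and 4 enterocyte-like (ent.) clusters of WT and ROBO. The top bars reach 25.1% in WT and 22.0% in ROBO, and the bottom bars 1.00% and 0.868%.

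Every cell of the top cluster carried Apoa1, Apoa4 and Apoc3, with a UMI of each in 100 of 100 WT and 127 of 127 ROBO cells. Apob, the sparse member of this group, had a UMI in 22 of the WT and 35 of the ROBO cells. The 10 genes took a median of 22.0% of the UMIs of a WT top cell, with a lowest of 4.03% and a highest of 41.7%, and a median of 21.4% of a ROBO top cell, from 6.18% to 45.1%. Apoa4 alone took a median of 14.6% in WT and 12.6% in ROBO, and 31.9% and 35.2% in the highest cell. In bottom cells the median of Apoa4 was 0.153% in WT and 0.156% in ROBO.

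**Figure D3:**
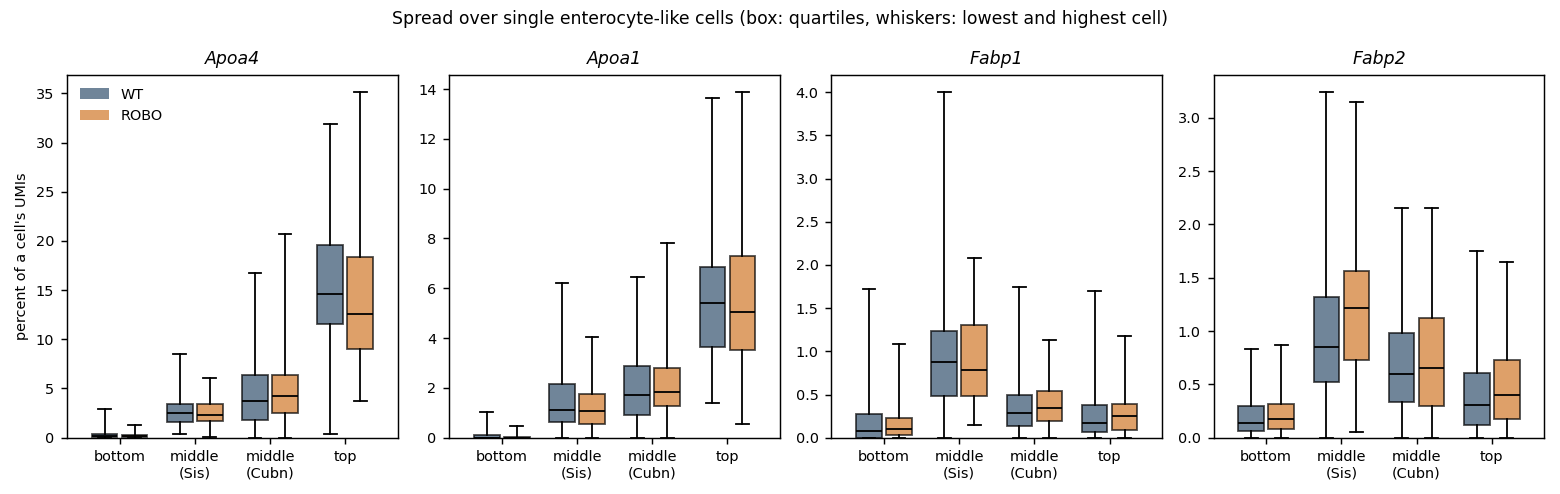
Percent of each cell's UMIs that came from Apoa4, Apoa1, Fabp1 or Fabp2 in the 4 enterocyte-like clusters of WT and ROBO; boxes span the quartiles with the median as a line, whiskers reach the lowest and highest cell, and each panel has its own scale from 0. The Apoa4 share of top cells varies widely within a genotype, up to 31.9% in WT and 35.2% in ROBO, and the Fabp1 and Fabp2 boxes are highest in the Sis-led cluster.

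Of the enterocyte-like cells, 755 with a landmark UMI were also ordered by a position score. The score is the share of top landmark genes such as Ada, Nt5e and Krt20 against bottom landmark genes such as Gsdmc4, Dmbt1 and Reg1. Landmark genes were also markers used to name the clusters, so the bins are not independent of the clusters. The cells were divided into 5 bins of 151. The first bin was mixed, with 67 bottom, 30 Sis-led, 43 Cubn-led and 11 top cells. The level of Apoa4 over both genotypes was 147.8, 124.5, 391, 760 and 1457 from the first bin to the last. The last bin had 9.85-fold the level of the first for Apoa4, 9.75-fold for Apoc3, 8.13-fold for Apoa1, 7.62-fold for Cd36 and 3.01-fold for Apob. Fabp1 had levels of 30.7, 52.4, 55.3, 41.7 and 25.6, and Mttp of 11.9, 15.5, 16.3, 14.6 and 10.99. Over both genotypes Fabp1, Fabp2, Mttp and Mogat2 had their highest level in the third bin. By genotype only Mogat2 did so in both, while Fabp1 was highest in bin 2 in WT and 3 in ROBO, Fabp2 in 4 and 3, and Mttp in 3 and 2. Dgat1 had like levels in bins 1 and 3, at 9.29 and 9.18. The score gives a range and not a cell type, and 238 of the cells lay within 0.02 of the edge of a bin.

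**Figure D4:**
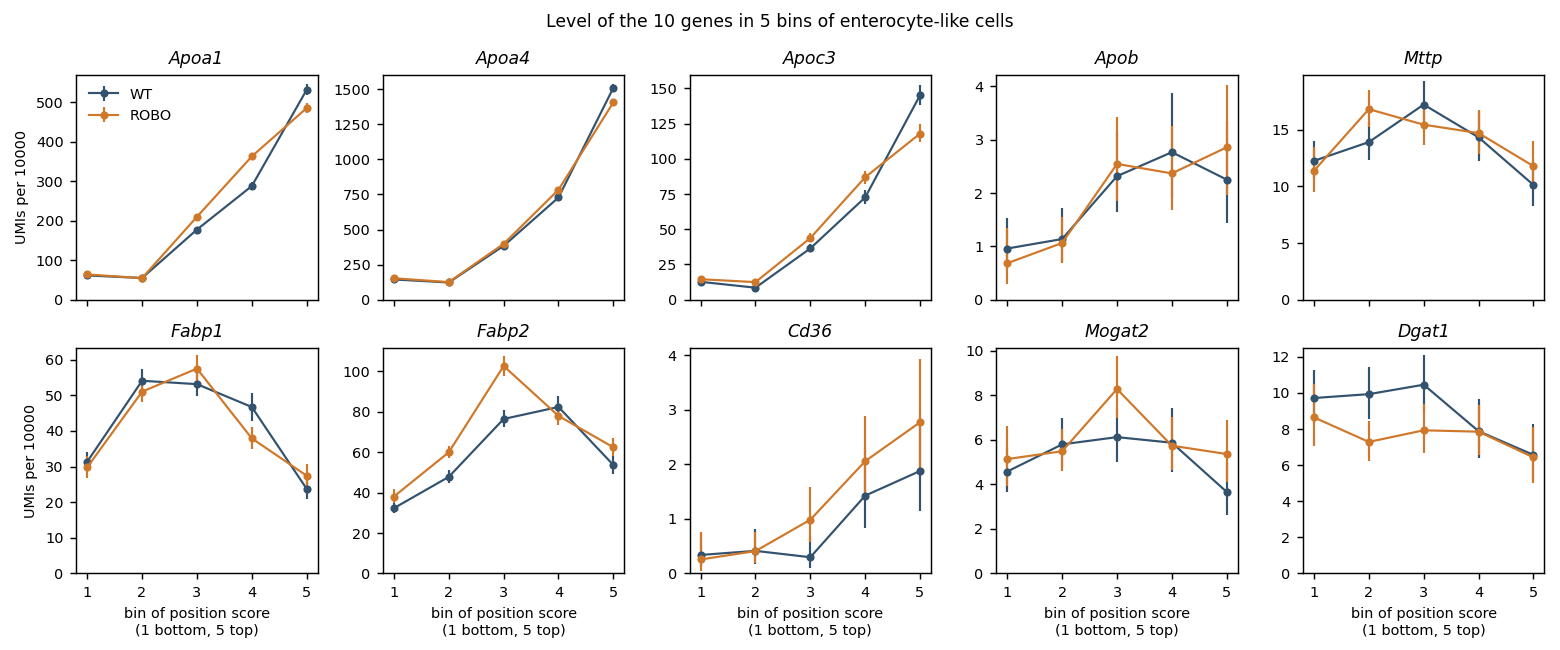
Level of each gene (UMIs per 10000 UMIs) in 5 bins of 151 enterocyte-like cells ordered by the score of top against bottom landmark genes, for WT and ROBO, with error bars that cover counting only (exact Poisson, 95%); each panel has its own scale from 0. Apoa4, Apoa1, Apoc3 and Cd36 are highest in the last bin, whereas Fabp1, Fabp2, Mttp and Mogat2 are highest in bins 2 to 4, and in the third in both genotypes for Mogat2 alone.

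In the crypt the genes were low, and Apob and Cd36 had no UMI in the stem-like cluster led by Lgr5. Apoa4 had a level of 6.01 (5.33 to 6.76) in that cluster and of 5.80 in the transiently amplifying-like cluster led by Sfrp5, over both genotypes. Immune-like cells, which do not make Apoa4 and so give a measure of free RNA, had an Apoa4 level of 3.10 (2.06 to 4.47). With each cell thinned to 912 UMIs, which left out 364 WT and 285 ROBO cells, 38.4% of 190 Lgr5-led stem-like cells had an Apoa4 UMI (31.5 to 45.7%, exact Clopper-Pearson 95% interval). Of 36 immune-like cells, 22.2% did (10.1 to 39.2%). The intervals of the thinned shares overlap, whereas those of the levels at full depth do not. Before thinning the shares were 62.0% and 37.0%. Cd36 had no UMI in the Lgr5-led stem-like, Sfrp5-led amplifying-like, secretory-like and immune-like cells, which allows a Cd36 level of up to 0.0640 in the Lgr5-led and 0.332 in the immune-like cells.

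All 8 genes with at least 100 UMIs were higher in bottom enterocyte-like than in Lgr5-led stem-like cells, against 30.7% of 1816 genes higher and 18.0% lower, from a log2 ratio of 1.35 for Apoa1 to 5.53 for Fabp1. Fabp1 was 46.3-fold, Mogat2 10.9-fold, Mttp 9.95-fold and Fabp2 8.48-fold the stem-like level. Apoa4 was 3.59-fold. Most of these folds are taken over a stem-like level below or close to that of immune-like cells. It was below for Fabp1 (0.448 against 1.11) and Dgat1. For Mttp (1.07 against 0.995), Apoa1, Fabp2 and Apoc3 it was close. The folds therefore do not rank the genes, and such stem-like levels do not show expression above free RNA. For Apoa1 and Apoc3 over both genotypes, bottom cells did not differ beyond counting error from a second stem-like cluster. That cluster was led by Zfp692 and had a median depth of 825.5 UMIs per cell. Its Apoc3 level was above that of bottom cells. With a coarser clustering (resolution 0.5 in place of 0.8), bottom over stem-like cells gave -0.97 for Apoa1, -0.51 for Apoa4 and -0.82 for Apoc3, so for these 3 genes the direction at the crypt exit depended on the clustering, which at that resolution had 274 WT and 228 ROBO bottom cells in place of 76 and 77 and no amplifying-like class. The lowest log2 ratio of Fabp1 over the alternatives was 2.32.

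A shallow amplifying-like cluster led by the ribosomal RNA gene Rn45s had an Apoa4 level of 53.7, above the 21.6 of bottom enterocyte-like cells. A cluster led by Cxcl10, Atf3 and Fosb had an Apoa4 level of 181. It had 8 raised markers of middle enterocytes but none among its 10 leading genes, and the naming rule used here left it unnamed. Both had a low depth, with a median of 922.5 UMIs per cell in the Rn45s-led and 1189 in the Cxcl10-led cluster, and the part of free RNA or damaged cells in these values was not tested.

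Other genes of the same route, listed by role, were read beside the 10. Of 78 such genes in 6 lists, 47 had at least 100 UMIs in enterocyte-like cells, and 23 of these had their highest level in the Sis-led cluster, 9 at the top, 8 at the bottom and 7 in the Cubn-led cluster. Over all 3105 genes with at least 100 UMIs the shares were 20.4% for Sis-led, 18.0% for top, 41.7% for bottom and 19.8% for Cubn-led cells. The 10 genes themselves divided into 5 with a maximum at the top and 5 in Sis-led cells.

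Among genes of fatty acid uptake and activation, Acsl5, an acyl-CoA synthetase, had a level of 3.78 at the bottom, 28.3 in Sis-led, 15.6 in Cubn-led and 9.84 in top cells. The transporter Slc27a4 had 2.54, 6.83, 4.77 and 2.70. Both were highest in Sis-led cells, as Fabp1 was. Dgat2, the second enzyme able to make triglyceride from diacylglycerol, had 2.36, 15.7, 17.6 and 28.4, and so was highest at the top, where Dgat1 was not.

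Of chylomicron assembly genes, P4hb, the partner subunit of Mttp, had levels of 21.8 at the bottom, 47.3 in Sis-led, 37.5 in Cubn-led and 30.8 in top cells. Sar1b, a coat protein gene needed for chylomicron export, had 2.18, 4.96, 2.83 and 2.11. In the cholesterol list, Npc1l1, the cholesterol importer, had 2.16, 4.09, 8.71 and 9.41, and its highest levels were those of Cubn-led and top cells. In the list of transcription factors, Hnf4g had 6.61, 5.19, 2.76 and 1.61, and Creb3l3 had 5.62, 11.95, 11.96 and 13.3. Hnf4g was thus highest in the bottom and lowest in the top cluster, whereas Creb3l3 was lowest at the bottom and similar in the other 3 clusters.

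From the Sis-led to the top cluster, 3 of the 28 listed genes with at least 100 UMIs were higher and 9 were lower, against 18.4% and 43.6% of all genes, with a median log2 ratio of -0.15 against -0.44 over all genes. From the bottom to the Sis-led cluster 18 of 31 were higher and 3 lower, against 17.5% and 24.6%, with a median of 0.92 against -0.13 over all genes.

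The pattern of each gene was compared with that of all 7458 genes with at least 100 UMIs, over 24 points made of 12 clusters in 2 genotypes, by Pearson's r of log2(level + 0.1). The points share depth and pooled libraries, so r is a description. The genes most like the 10 summed were Dgat2 (r 0.973), Spink1 (0.962), Gda (0.960), Ggt1 (0.960) and Npc1l1 (0.956). Among the 10, Apoa1 was most like Apoa4 (0.987) of all genes, and Apoc3 was also most like Apoa4 (0.986). Fabp2 was most like Fabp1 (0.975). Mogat2 was most like Creb3l3 (0.965), Mttp most like Hsd17b11 (0.957), Dgat1 most like Enpep (0.933) and Cd36 most like Aqp8 (0.943). With a pseudocount of 1 in place of 0.1 most of these pairs changed: the most like gene was then Slc27a4 for Mogat2, Btnl1 for Mttp, Ap2a2 for Dgat1, Ceacam20 for Cd36 and Apoa1 for Apoc3. With either pseudocount no member was the most like gene of Mogat2, Mttp, Dgat1 or Cd36.

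The genotypes differed little over all enterocyte-like cells. None of the 10 genes was 1.5-fold apart, against a background of 4.28% of 3105 genes. Summed, the 10 had a level of 848 in WT against 920 in ROBO, which made the log2 ratio of ROBO over WT 0.12 (0.10 to 0.13). Of the 10 single ratios 9 were above 0, with a median of 0.11 against -0.01 over all genes, of which 1520 of 3105 were above 0. Within clusters, of the members with at least 100 UMIs 2 of 7 were above 0 in bottom (median -0.25), 4 of 8 in Sis-led, 7 of 9 in Cubn-led (median 0.12) and 4 of 8 in top cells (median 0.01). The top cluster held 26.2% of enterocyte-like cells in WT (exact interval 21.8 to 30.9%) and 31.4% in ROBO (26.9 to 36.2%), and a sum over clusters moves with such shares. With each of the 4 clusters given the same weight, as the mean of their log2 ratios, the ratio of the sum was -0.08. This alternative was chosen after the data were seen. The direction of the ratio of the sum thus depended on how the clusters were weighted.

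Fabp2 had the largest ratio among the abundant members, with a level of 56.5 in WT against 69.7 in ROBO over the enterocyte-like cells and a log2 ratio of 0.30 (0.25 to 0.36). It was also above 0 in each cluster, at 0.08 (-0.11 to 0.27) in bottom, 0.24 (0.14 to 0.33) in Sis-led, 0.34 (0.24 to 0.43) in Cubn-led and 0.40 (0.25 to 0.55) in top cells. The bottom interval held 0 and the other 3 did not. Dgat1 went the other way, with a level of 9.16 in WT against 7.64 in ROBO and a log2 ratio of -0.26 (-0.42 to -0.10), and was below 0 in each cluster, from -0.40 in Sis-led to -0.03 in Cubn-led cells. Over the 13 alternatives the ratio of Fabp2 lay between 0.19 and 0.41 and that of Dgat1 between -0.33 and -0.18, so both kept their direction. Neither reached 1.5-fold, and without separate samples no variation between animals or cartridges could be set against either.

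Apoa1 had the largest ratio within an enterocyte-like cluster among members with at least 100 UMIs, in bottom cells, with 189 UMIs in WT and 90 in ROBO. The log2 ratio was -0.95 (-1.33 to -0.58), an interval that does not cover spread between cells. A UMI of Apoa1 was found in 37 of 76 WT and 28 of 77 ROBO bottom cells. The highest cell held 25 of them in WT and 11 in ROBO. Apoa1 was the only one of 7 members tested there past 1.5-fold, a share close to the background of 12.5% of 817 genes. In the same bottom cells Apoa4 had 541 and 419 UMIs, a log2 ratio of -0.25 (-0.44 to -0.06), so there were 2.86 Apoa4 UMIs per Apoa1 UMI in WT (2.42 to 3.40) and 4.66 in ROBO (3.70 to 5.91). In Sis-led cells this ratio was 2.17 in both genotypes. It was lower in ROBO in Cubn-led cells, at 2.30 in WT (2.22 to 2.38) and 2.15 in ROBO (2.09 to 2.22). The same held in top cells, at 2.79 (2.72 to 2.86) and 2.50 (2.44 to 2.56). The log2 ratio of Apoa1 was -0.28 in Sis-led, 0.28 in Cubn-led and -0.10 in top cells.

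Mttp in top cells was just past the threshold, with 100 UMIs in WT against 209 in ROBO and a log2 ratio of 0.59 (0.23 to 0.94). It was the only one of 8 members tested there past 1.5-fold, a share close to the background of 8.06% of 422 genes. Its ratio was -0.21 in bottom, 0.07 in Sis-led and 0.12 in Cubn-led cells, each with an interval that held 0. No member was past 1.5-fold in the Sis-led cluster, against 12.1% of 562 genes, or in the Cubn-led cluster, against 2.72% of 957 genes.

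Over the enterocyte-like cells Cd36 had 61 WT UMIs and 97 ROBO UMIs, with a log2 ratio of 0.58 (0.10 to 1.07) that lay just under 1.5-fold. With each of the 4 clusters given the same weight the ratio of Cd36 was -0.0026. Over all cells it had 69 and 99 UMIs, a ratio of 0.66 (0.21 to 1.13), and it was then the only one of the 10 past the threshold, against 2.79% of 7458 genes. Over all cells the median of the 10 genes was 0.25, against 0.00 over all genes, and ROBO had the larger share of enterocyte-like cells, 404 of 1249 against 382 of 1348.

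Secretory-like cells, 62 in WT and 63 in ROBO, held Apoa4 as well, with 213 WT UMIs against 63 ROBO UMIs and a log2 ratio of -1.70 (-2.13 to -1.29), in a class where 16.8% of 321 genes were past 1.5-fold. Apoa1 had 86 against 51 UMIs there and a log2 ratio of -0.70 (-1.23 to -0.18). These UMIs lay in few cells: 5 WT cells held 82.2% of the Apoa4 UMIs of WT, and 5 ROBO cells 49.2% of those of ROBO. In the same secretory-like cells Fabp2 had 76 WT against 88 ROBO UMIs and Fabp1 25 against 32. Apoc3 had 22 against 8, Dgat1 30 against 20 and Mttp 15 against 8. Free RNA and cells captured together were not tested for their part in these values.

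**Figure D5:**
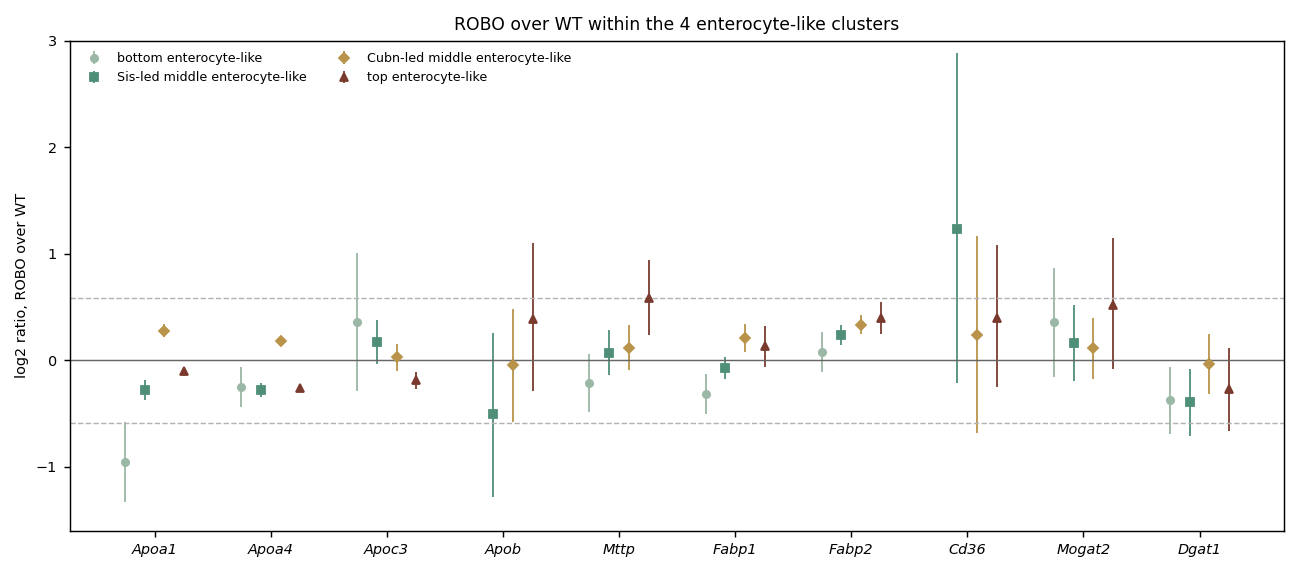
Log2 ratio of ROBO over WT of each gene within the 4 enterocyte-like clusters, with conditional exact 95% intervals for counting error only; dashed lines mark 1.5-fold, and points from fewer than 20 UMIs are left out. Apoa1 in bottom cells (-0.95) and Mttp in top cells (0.59) lie past a dashed line with at least 100 UMIs, as does the Cd36 point of Sis-led cells, which rests on 21 UMIs.

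Of the 47 other genes of fat handling with at least 100 UMIs in enterocyte-like cells, none was at least 1.5-fold higher in ROBO and 2 were lower, against 1.48% higher and 2.80% lower of all 3105 genes, with a median log2 ratio of 0.03. The 2 were Gpat3, which starts triglyceride synthesis from glycerol phosphate, at -0.74, and Gata4, a transcription factor of the proximal intestine, at -0.64. In uptake and activation the ratios ran from -0.48 for Got2 to 0.23 for Slc27a2, with -0.20 for Dbi, the gene with the most UMIs. Synthesis genes ran from Gpat3 to Lpin2 (0.30), with Dgat2 at 0.13. For chylomicron assembly the ends were Sar1a (-0.32) and Sec24d (0.42), with P4hb at 0.05. Lipid droplet genes ran from Aup1 (-0.54) to Plin2 (0.22), with Cideb at 0.04. In the cholesterol list the ends were Soat2 (-0.47) and Lipa (0.39), with Npc1l1 near 0, and among the transcription factors Gata4 and Hnf4g (0.18), with Creb3l3 at 0.10.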

How the data were processed

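Single-cell libraries of crypt-enriched small intestine of 8 WT and 8 ROBO samples were made with a droplet kit that tags transcript 3′ ends with UMIs. The authors processed the reads in BaseSpace Sequence Hub and deposited raw gene counts per cell, 1 matrix per genotype, without normalization. The submitters' processing notes name the builds mm10 and GRCm38, and the aligner, annotation and cell calling are not given in the sources used here. Depth was 463 to 13756 UMIs per cell, and the precision of each value is given by its counting interval.

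Both matrices were combined and all 2597 cells kept. Seurat 5.3.0 in R 4.3.3 was run at a resolution of 0.8 on 20 principal components from 2000 variable genes, with S and G2M scores regressed out; 88 fat genes were left out of the variable genes. Seurat was used in its second version by the study, which names no such settings. A cluster was named, with the ending -like, where 3 or more markers of a list had a level 1.5-fold that of the other cells and UMIs in 10% or more of the cluster's cells. Of such lists the one with the highest mean log2 ratio was taken. A marker of that list also had to be among the 10 leading genes of the cluster, with no other list having more there. Scrublet in scanpy 1.11.5 called 2 WT and 4 ROBO doublets at a set rate of 5%; they were kept, and as fewer than 1 in 100 cells were called the caller may have missed some. UMIs were summed per cluster and genotype and scaled to 10000, with exact intervals from scipy 1.17.1 in Python 3.11.15. There was no test between genotypes, because each is 1 pooled sample and cells are not replicates. The scripts were tested on simulated data.

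The genes named are the 10 members and, of each pathway list, the genes with the largest and smallest ratio of ROBO over WT and with the most UMIs, the most like genes by pattern (those of Apob and Fabp1 are not reported here), and leading genes of clusters; Acsl5, Slc27a4 and Sar1b were added after their values were seen. The members and lists were chosen with earlier results of these data known. Coordinates come from GENCODE M21 by symbol. Alternatives covered the variable genes, regression, resolution, a minimum of 500 genes per cell, doublets, the weight of cells, scaling (also with edgeR 4.0.16 and DESeq2 1.42.0 factors), the minimum of UMIs, the highest cells, thinning, bins and the pseudocount.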

Additional observations from a re-analysis of the deposited data

Results flagged for a closer look

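For 3 genes the counting intervals of the log2 ratio of ROBO over WT lay on opposite sides of 0 in different enterocyte-like clusters. With 1 pooled sample per genotype the difference between clusters was not tested, and clusters share the libraries of their genotype. Apoa1 was higher in ROBO in Cubn-led middle cells (0.28) and lower in bottom (-0.95), Sis-led middle (-0.28) and top cells (-0.10). Apoa4 followed the same signs, with 0.18 in Cubn-led middle cells against -0.25 in bottom, -0.28 in Sis-led middle and -0.26 in top cells. Fabp1 was higher in Cubn-led middle cells (0.21) and lower in bottom cells (-0.32), while its intervals in Sis-led and top cells held 0. Fabp1 in top cells had a ratio of 0.13, so the Cubn-led cluster was not the only one with a value above 0 for that gene. That cluster gave 134 WT and 140 ROBO cells, with median depths of 1543 and 1462.5 UMIs.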

How the results depend on the processing

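No paired analysis was possible because the cell names carry no sample, and neither a replicate block nor leaving out each replicate was run. The log2 ratio of ROBO over WT of the 10 genes summed in enterocyte-like cells, 0.12, became 0.025 with no regression of cell cycle scores, 0.31 at resolution 0.5, 0.19 with cells of at least 500 genes, 0.066 as a mean over cells, 0.15 with DESeq2 size factors and 0.15 without the 5 highest cells. Of the alternatives chosen after the data were seen, it became -0.078 with each cluster weighted the same and 0.19 with the Cxcl10-led cluster among middle cells. The count of genes past 1.5-fold, 0, became 1 (Cd36, which moved from 0.58 to between 0.59 and 0.73) at resolution 0.5, without doublets, scaled without the 10 genes, with TMM or DESeq2 factors and without the 5 highest cells; with each cluster weighted the same Cd36 was at -0.0026. Top over middle for Apoa1, Apoa4 and Apoc3, 1.99, was 2.01 with fat genes kept, 1.81 with no regression, 2.15 at resolution 0.5, 2.11 with at least 500 genes, 2.03 without doublets, 1.79 as a mean over cells, 2.26 without the 10 genes and 2.16 with the Cxcl10-led cluster. The same ratio for Fabp1, Fabp2, Mttp and Mogat2, -0.95, was -0.89 with fat genes kept, -0.79 with no regression, -0.70 at resolution 0.5, -0.65 with at least 500 genes, -0.68 without the 10 genes and -0.72 with the Cxcl10-led cluster. Bottom over stem-like cells for the 10 genes, 2.05, was 1.40 with fat genes kept, 0.38 at resolution 0.5, 1.77 with at least 500 genes, 1.35 without doublets and 1.77 as a mean over cells; with no regression no such class was found. At resolution 0.5 Apoa1 (-0.97), Apoa4 (-0.51), Apoc3 (-0.82) and their sum (-0.64) turned direction there; the cause was not tested. The share of Lgr5-led stem-like cells with an Apoa4 UMI, 38.4%, was 62.0% with no thinning and 50% thinned to the median of 1550 UMIs. These shares differ in depth and also in cells, since thinning leaves out cells below the set depth. The log2 ratio of Apoa4 between the last and first bin, 3.30, was 3.25 with 3 bins. With a pseudocount of 1, 2 of the 5 most like genes were shared. Of 343 further values for single genes and sums, 327 kept their direction. In size, 216 lay within the counting interval of the reported value and 123 outside it, and 4 turned direction from a ratio past 1.5-fold. Among the alternatives for the main results, 37 moved, by that interval or by a change in a count, and 21 did not. Depth limits Apob, Cd36 and Mogat2 most.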

Other observations

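Genes that mark a region of the small intestine were read beside the 10. By the paper's methods, crypts for sequencing were isolated as for its organoid cultures, which used the proximal part, the duodenum and jejunum. The ileal genes Fabp6 and Slc10a2 had 0 UMIs in all 4 enterocyte-like clusters, which allows a level of up to 0.0966 in the Sis-led cluster, the one with the fewest UMIs. Other genes of the distal list were present, with 160 to 359 Slc51a UMIs per enterocyte-like cluster, 0 to 451 of Cubn, 54 to 239 of Amn, 20 to 74 of Slc51b and 1 to 18 of Fgf15. Lct, the lactase gene, had levels of 6.27 at the bottom, 24.8 in Sis-led, 43.7 in Cubn-led and 32.7 in top cells. Over the enterocyte-like cells the 8 genes of the proximal list summed to a level of 40.0 in WT and 40.1 in ROBO, and the distal list, of which 7 genes are in the matrices, to 14.6 and 14.4. The sums lay within each other's counting intervals, but the proximal sum is mostly Lct, and Gata4 of the same list had a log2 ratio of ROBO over WT of -0.64.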
